A study of Saccharomyces cerevisiae CEN.PK113-7D with 6 samples.

Results

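The 31 genes described here encode the subunits of the nuclear RNA polymerases I, II and III of the budding yeast Saccharomyces cerevisiae. Members were taken by name from a list of subunits. All 31 were found by their symbol, each with 1 probe set on the array, among 5449 S. cerevisiae genes measured in all. No member's probe set carries the suffix for shared or cross-hybridising probes. Of the 31 genes, 7 encode subunits found only in polymerase I, 10 only in polymerase III and 7 only in polymerase II. A further 2 encode subunits shared by polymerases I and III, and 5 encode subunits shared by all 3 enzymes.

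The samples came from the laboratory strain CEN.PK113-7D, a haploid of mating type a, grown on glucose either in batch culture, where the medium is not renewed, or in a chemostat, which is fed and drained continuously. Each group has 3 samples, numbered 1, 2 and 3 for batch and 4, 8 and 9 for chemostat, and the biotin-labelled total RNA of each was hybridised to 1 GeneChip array. The 6 arrays were made to be set against RNA sequencing of the same extractions. No gene was altered and no agent was added in either group, as far as the labels say, and they state steady state as the moment of sampling. The sources used here give no dilution rate, limiting nutrient or growth phase. They do not say whether replicates came from separate cultures either, so the p-values below reflect sample-to-sample spread that could be technical.

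RNA polymerase I makes the precursor of the large ribosomal RNAs, polymerase III makes transfer RNAs and the smallest ribosomal RNA, and polymerase II makes messenger RNAs. The 3 enzymes share a common core: a largest and a second-largest subunit that form the active centre, an alpha-like pair that nucleates assembly, a stalk of a pair of subunits, a zinc-ribbon subunit and small common subunits. In yeast, output of polymerases I and III follows the demand for ribosomes and so the growth rate, which is what these enzymes are best known for in this organism.

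Values are signals on a log scale, taken as log2 from their range, as the authors deposited them. A change is the chemostat mean minus the batch mean, with n = 3 arrays in each group. The arrays report relative signal: the median gene stood between 7.95 and 7.97 on all 6, so a change is a change against the other transcripts, and in bulk RNA fewer cells with a transcript and less of it per cell cannot be told apart. Correlations across genes, which are not independent replicates, were 0.994 to 0.997 within batch, 0.995 to 0.999 within chemostat and 0.815 to 0.853 between groups. Probe sets for the fission yeast S. pombe served as background, with a 95th percentile of 5.93, and the lowest member value on any array was 6.97. Batch replicate 1 lay below the mean of the other batch arrays for 24 of the 31 members, with a median gap of -0.06 (-0.02 over all genes). Chemostat replicate 4 lay above the mean of the other chemostat arrays for 21 of the 31, with a median gap of 0.03 (-0.001 over all genes). All 5 a-cell markers were above background in both groups; 4 of them fell, among them the pheromone receptor gene STE2, from 11.003 to 8.88, and MFA1 did not pass (-0.04). Over these 5 markers chemostat replicate 4 lay above the other chemostat arrays by a median of 0.62. Of 4 alpha-cell markers, MF(ALPHA)2 was below background in both groups and MF(ALPHA)1 in batch only (5.60, and 6.55 in chemostat), whereas STE3 (6.60 and 7.13) and SAG1 (6.69 and 6.98) were above it in both and rose.

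The subunit genes were lower in chemostat almost throughout. By limma, with p-values adjusted over all genes (Benjamini-Hochberg) and called under 0.05, 28 of 31 members were lower, 0 were higher and 3 did not pass. Over all 5449 genes 44.8% were called lower and 33.6% higher. At an unadjusted p under 0.05, 29 members were lower and 0 higher. The median change of the members was -0.77, against -0.06 over all genes, and single members ranged from -1.22 for RPA49 to 0.05 for RPO21. The 28 called members were also those whose batch and chemostat arrays did not overlap, all with chemostat lower; such genes were 46.4% of all genes. When a change of more than 1.5-fold was required (limma's treat), 19 members passed as lower, against 10.4% of all genes.

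**Figure D1:**
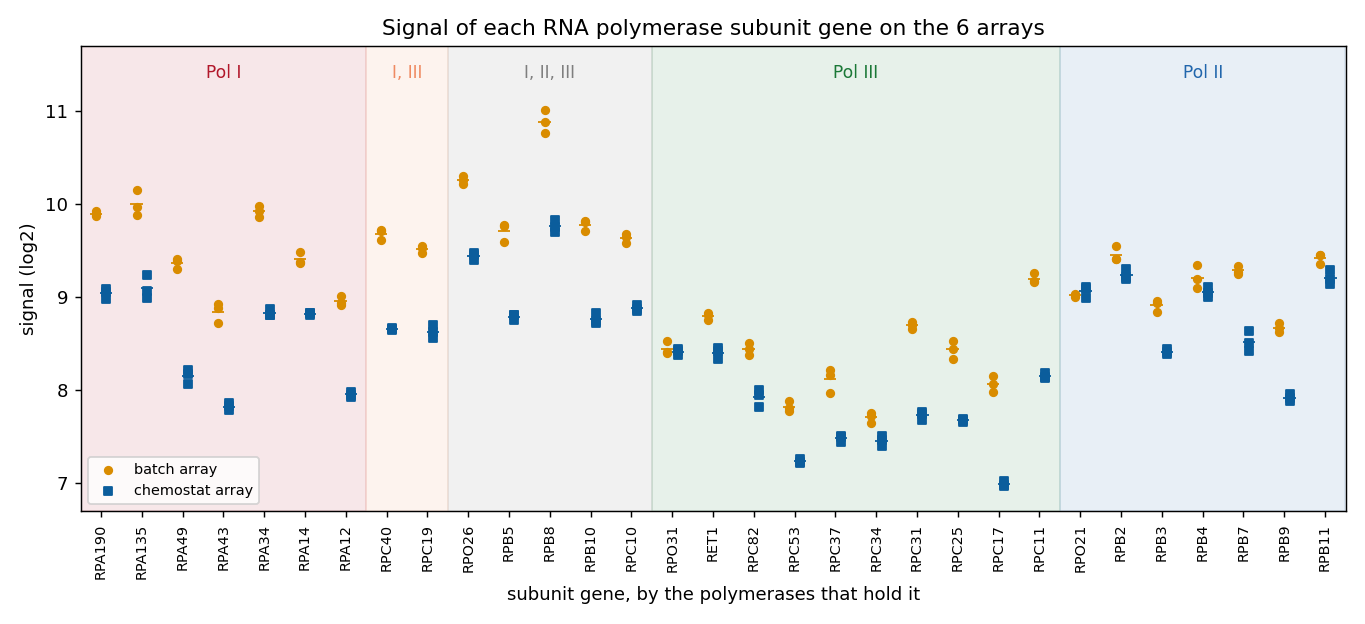
Signal (log2, vertical axis) of the 31 subunit genes on each batch array (circles) and chemostat array (squares), with group means as short lines and genes grouped by the polymerases that hold the subunit. The groups overlap only for RPO31, RPO21 and RPB4; heights of different genes are not comparable, since each comes from its own probe set.

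Counted by whole enzyme, all 14 subunit genes of polymerase I were lower, as were 16 of 17 for polymerase III and 10 of 12 for polymerase II, shared subunits counted in each. Over all genes 44.8% were lower. The medians of the whole enzymes were close, at -0.96 for polymerase I, -0.81 for polymerase III and -0.75 for polymerase II. The 5 common genes stand in all 3 counts and medians, so the enzymes are described below by the subunits that are their own. The median change was -1.001 for the 7 genes of polymerase I alone, -0.96 for the 2 shared by I and III, -0.92 for the 5 common to all, -0.61 for the 10 of polymerase III alone and -0.22 for the 7 of polymerase II alone. On single arrays the polymerase I genes had a median between -1.03 and -0.98 relative to their batch means in chemostat. Those of polymerase III lay between -0.62 and -0.61, and those of polymerase II between -0.28 and -0.24. These medians describe the lists and were not tested against each other.

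**Figure D2:**
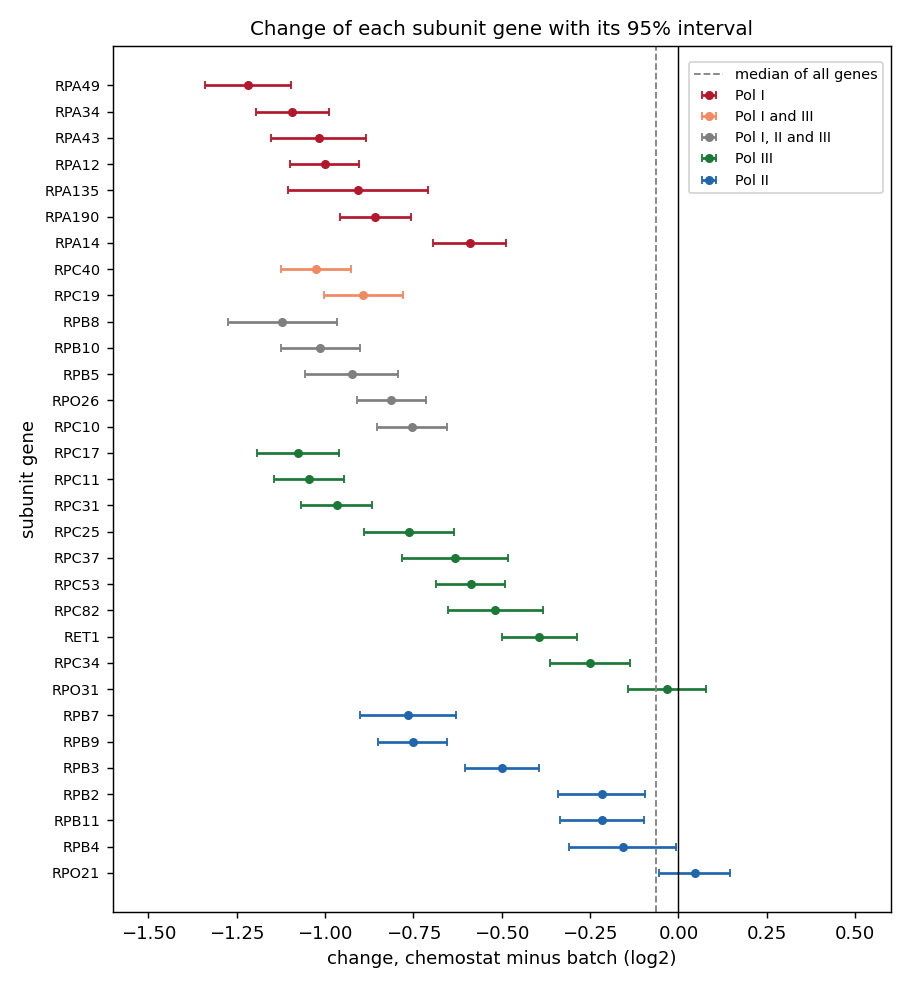
Fitted change (chemostat minus batch, log2, horizontal axis) of each subunit gene with its 95% interval, ordered within each class. The intervals of RPO31 and RPO21 include 0, that of RPB4 ends at -0.01, and the dashed line marks the median of all genes at -0.06.

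All 7 genes particular to polymerase I fell. RPA190 (YOR341W), the largest subunit, which carries part of the active centre, stood at 9.89, 9.87 and 9.93 in batch replicates 1, 2 and 3 and at 9.05, 8.98 and 9.08 in chemostat replicates 4, 8 and 9. It fell by 0.86 (SE 0.043, adjusted p = 5.89e-07 by limma). RPA135 (YPR010C), the second-largest subunit, stood at 9.97, 9.88 and 10.16 in batch and at 8.98, 9.06 and 9.24 in chemostat, and fell by 0.91 (SE 0.086). It had the largest SD of any member within a group (0.141, in batch), and its lowest batch array was still above its highest chemostat array.

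RPA49 and RPA34 encode a heterodimer that resembles the polymerase II factor TFIIF and aids initiation and elongation. RPA49 (YNL248C) stood at 9.31, 9.39 and 9.41 in batch and at 8.06, 8.17 and 8.22 in chemostat, the largest fall of the 31 members at 1.22 (SE 0.053, adjusted p = 2.64e-07 by limma), or 2.33-fold. RPA34 (YJL148W) had values of 9.92, 9.98 and 9.86 in batch against 8.81, 8.81 and 8.87 in chemostat and fell by 1.09 (SE 0.045). Both partners thus moved by similar amounts, at percentiles 1.90 and 2.91 among the changes of all genes, where low percentiles are the largest falls.

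The stalk of polymerase I is formed by RPA43, which binds the initiation factor Rrn3, and RPA14. RPA43 (YOR340C) stood at 8.72, 8.88 and 8.92 in batch and at 7.82, 7.78 and 7.86 in chemostat, and fell by 1.02 (SE 0.059). RPA14 (YDR156W) stood at 9.37, 9.49 and 9.38 in batch and at 8.81, 8.83 and 8.83 in chemostat. It fell by 0.59 (SE 0.045), the smallest change among the polymerase I genes, and was the only one of the 7 that did not pass as changed by more than 1.5-fold. RPA12 (YJR063W), the zinc-ribbon subunit needed for transcript cleavage and termination, went from 8.91, 9.01 and 8.94 to 7.98, 7.93 and 7.95, a fall of 1.001 (SE 0.042). RPA43 and RPA190 are divergently transcribed neighbours, the only 2 of the 31 genes that lie next to each other, and their changes were -1.02 and -0.86.

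The genes of the alpha-like pair shared by polymerases I and III fell by similar amounts. RPC40 (YPR110C) stood at 9.61, 9.72 and 9.71 in batch and at 8.64, 8.66 and 8.66 in chemostat, and fell by 1.03 (SE 0.043). RPC19 (YNL113W) stood at 9.48, 9.55 and 9.53 in batch and at 8.70, 8.56 and 8.63 in chemostat, and fell by 0.89 (SE 0.048). In neither gene did the groups overlap.

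All 5 genes of the common subunits, which polymerase II contains as well, fell. RPB8 (YOR224C) stood at 10.76, 10.88 and 11.01 in batch and at 9.83, 9.75 and 9.70 in chemostat, and fell by 1.12 (SE 0.067, adjusted p = 1.34e-06 by limma). RPB10 (YOR210W), a small zinc-binding subunit that joins the core during assembly, went from 9.82, 9.81 and 9.71 to 8.83, 8.72 and 8.74 and fell by 1.01 (SE 0.048). RPB5 (YBR154C), which forms part of the jaw that grips the incoming DNA, had 9.59, 9.78 and 9.77 in batch and 8.81, 8.75 and 8.80 in chemostat, a fall of 0.92 (SE 0.057). The lowest batch array of each of these genes lay above its highest chemostat array. RPO26 (YPR187W), also called RPB6, which helps to hold the largest subunit in place, stood at 10.26, 10.30 and 10.21 in batch and at 9.46, 9.40 and 9.48 in chemostat, and fell by 0.81 (SE 0.043). RPC10 (YHR143W-A), also called RPB12, another small zinc-binding subunit, went from 9.67, 9.64 and 9.58 to 8.87, 8.85 and 8.92 and fell by 0.75 (SE 0.043). The smallest fall of a common subunit was thus close to the largest of a subunit of polymerase II alone, RPB7 (-0.77).

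Genes particular to polymerase III were spread from no detectable change to a fall of more than 2-fold. At one end stood RPO31 (YOR116C), the largest subunit, with 8.41, 8.39 and 8.53 in batch and 8.37, 8.42 and 8.45 in chemostat. The groups overlapped, and the change of -0.03 (95% interval -0.14 to 0.08, limma adjusted p = 0.552) did not pass. RET1 (YOR207C), the second-largest subunit, which takes part in termination, stood at 8.80, 8.76 and 8.83 in batch and at 8.42, 8.33 and 8.45 in chemostat, and fell by 0.39 (SE 0.046). The catalytic pair of polymerase III therefore had smaller changes than most of the smaller subunits of that enzyme.

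RPC82, RPC34 and RPC31 encode a subcomplex that recruits polymerase III to its promoters and opens the DNA, and they did not move by equal amounts. RPC34 (YNR003C), which contacts the initiation factor Brf1, stood at 7.64, 7.75 and 7.72 in batch and at 7.51, 7.46 and 7.39 in chemostat, and fell by 0.25 (SE 0.049, adjusted p = 0.00158 by limma). RPC82 (YPR190C) stood at 8.44, 8.38 and 8.5004 in batch and at 7.82, 7.95 and 8.001 in chemostat, a fall of 0.52 (SE 0.058). RPC31 (YNL151C) went from 8.65, 8.73 and 8.70 to 7.74, 7.68 and 7.76 and fell by 0.97 (SE 0.043). The 3 falls had 95% intervals of -0.36 to -0.14, -0.65 to -0.38 and -1.07 to -0.87, which do not overlap.

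RPC53 and RPC37 encode a TFIIF-like pair that acts in termination and reinitiation, and their changes were nearly equal. RPC53 (YDL150W) stood at 7.78, 7.88 and 7.80 in batch and at 7.21, 7.22 and 7.26 in chemostat, and fell by 0.59 (SE 0.042). RPC37 (YKR025W) stood at 7.97, 8.22 and 8.16 in batch and at 7.51, 7.50 and 7.45 in chemostat, and fell by 0.63 (SE 0.065). Neither passed as changed by more than 1.5-fold.

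The largest falls among polymerase III genes were those of RPC17 and RPC11. RPC17 (YJL011C), a stalk subunit that also contacts Brf1, stood at 8.07, 8.15 and 7.98 in batch and at 7.02, 6.97 and 6.98 in chemostat, and fell by 1.08 (SE 0.050, adjusted p = 3.60e-07 by limma). Its stalk partner RPC25 (YKL144C) went from 8.33, 8.45 and 8.53 to 7.69, 7.65 and 7.68 and fell by 0.76 (SE 0.055). RPC11 (YDR045C), the zinc-ribbon subunit needed for transcript cleavage and termination, stood at 9.16, 9.26 and 9.17 in batch and at 8.18, 8.13 and 8.14 in chemostat, a fall of 1.05 (SE 0.043). In chemostat RPC17 lay nearest to background among all members (mean 6.99), whereas in batch RPC34 (7.71) and RPC53 (7.82) lay below it (8.07). The floor of the signal can compress changes, which was not tested here. With background subtracted, a setting chosen after the data were seen, the change of RPC17 was -1.34 and that of RPC11 -1.15. Such a subtraction enlarges changes by its arithmetic, most at low signal, so these values cannot show whether changes were compressed.

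Of the 7 genes particular to polymerase II, 5 fell and 2 did not pass. RPO21 (YDL140C), the largest subunit, whose repetitive tail carries the marks that couple transcription to RNA processing, stood at 9.0002, 9.04 and 9.02 in batch and at 9.11, 9.09 and 8.99 in chemostat. The groups overlapped and the change of 0.05 did not pass (95% interval -0.06 to 0.15, limma adjusted p = 0.362). RPB2 (YOR151C), the second-largest subunit, had 9.40, 9.40 and 9.55 in batch and 9.19, 9.21 and 9.30 in chemostat, and fell by 0.22 (SE 0.053, adjusted p = 0.00556 by limma). RPO21 thus had the change nearest to 0 of the 7 genes, while that of RPB2 was their median.

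The alpha-like pair of polymerase II is RPB3 and RPB11. RPB3 (YIL021W) stood at 8.84, 8.96 and 8.94 in batch and at 8.44, 8.38 and 8.41 in chemostat, and fell by 0.50 (SE 0.045). RPB11 (YOL005C) stood at 9.36, 9.45 and 9.45 in batch and at 9.29, 9.19 and 9.14 in chemostat, and fell by 0.22 (SE 0.051). Its lowest batch array lay just above its highest chemostat array.

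The stalk subunits Rpb4 and Rpb7, which bind each other and can leave the enzyme, had unequal changes. RPB7 (YDR404C) stood at 9.27, 9.25 and 9.33 in batch and at 8.63, 8.503 and 8.42 in chemostat, and fell by 0.77 (SE 0.059), the largest fall among the genes of polymerase II alone. RPB4 (YJL140W) stood at 9.19, 9.34 and 9.09 in batch and at 9.10, 9.0002 and 9.05 in chemostat, groups that overlapped, and its change of -0.16 (SE 0.066) did not pass (limma adjusted p = 0.0551). That value and call turned on single arrays, in both directions: without batch replicate 3 the change was -0.22 (limma adjusted p = 0.0151), without chemostat replicate 4 it was -0.19 (limma adjusted p = 0.0495), and without batch replicate 2 it was -0.09 (limma adjusted p = 0.166). RPB9 (YGL070C), the zinc-ribbon subunit that affects start site choice and fidelity, went from 8.67, 8.72 and 8.63 to 7.96, 7.92 and 7.88 and fell by 0.75 (SE 0.043).

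Because the 3 enzymes are built alike, changes can be set side by side at 7 corresponding positions, which give 17 pairs of different genes. For each pair the difference of log2 signal was taken on every array and compared between groups. With 3 arrays against 3 the two-sided exact permutation test cannot go below p = 0.1, so no pair could pass 0.05. In 15 of the 17 pairs the differences on batch and chemostat arrays did not overlap; for comparison, the groups did not overlap for 81.7% of single genes.

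At the position of the largest subunit, the change of RPA190 minus that of RPO21 was -0.90 (95% interval -1.08 to -0.72, exact permutation p = 0.1), and the change of RPA190 minus that of RPO31 was -0.83 (95% interval -0.94 to -0.71). RPO31 and RPO21 differed by -0.08 (95% interval -0.27 to 0.12, exact permutation p = 0.4), and their differences overlapped between groups. RPA190 was thus the only one of these 3 genes whose own interval excluded 0. At the position of the second-largest subunit the polymerase I gene again had the lowest change, with RPA135 at -0.69 against RPB2 and -0.51 against RET1. RET1 lay at -0.18 against RPB2 (95% interval -0.30 to -0.05).

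The alpha-like subunits of polymerases I and III also had lower changes than their counterparts in polymerase II. RPC40 differed from RPB3 by -0.53 (95% interval -0.58 to -0.47) and RPC19 from RPB11 by -0.68 (95% interval -0.78 to -0.57). Both intervals exclude 0, though the exact permutation p of each was 0.1.

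At the stalk the order of the enzymes was not the same for both subunits. For the OB-fold partner (RPA43, RPC25 and RPB7), RPC25 and RPB7 differed by 0.004 (95% interval -0.20 to 0.21, exact permutation p = 1). RPA43 lay at -0.26 against RPC25 and at -0.25 against RPB7. For the other stalk partner the order, from the lowest change, was RPC17, RPA14, RPB4. RPC17 differed from RPB4 by -0.92 (95% interval -1.002 to -0.83). RPA14 differed from RPC17 by 0.49 in the direction of a smaller fall. All 3 zinc-ribbon genes fell, and RPA12 differed from RPB9 by -0.25, RPC11 from RPB9 by -0.29 and RPA12 from RPC11 by 0.04.

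**Figure D3:**
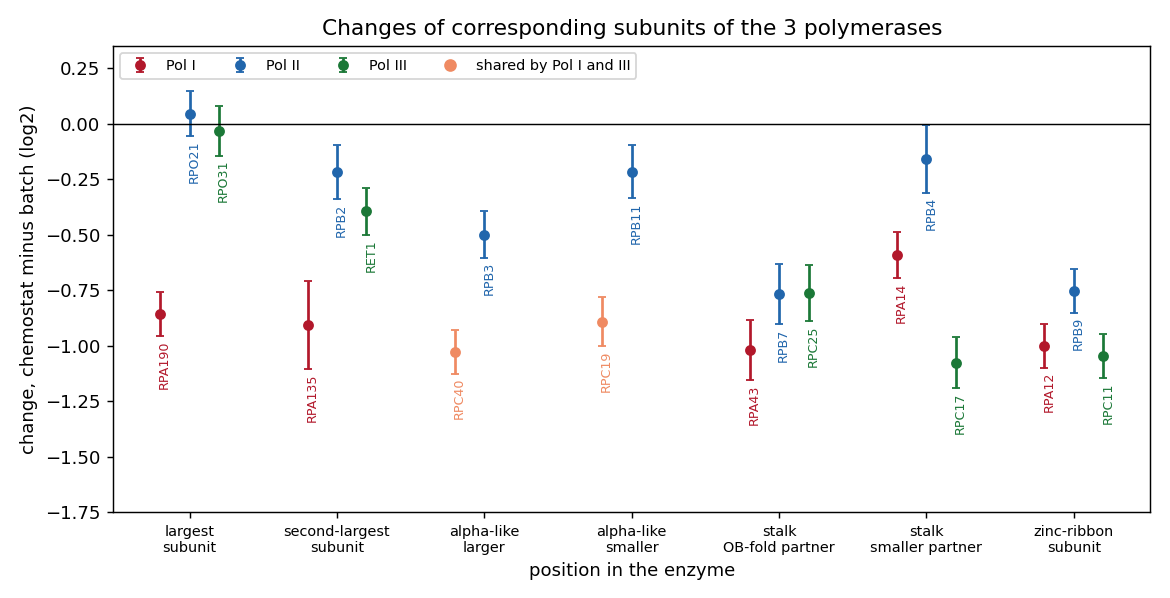
Fitted change (chemostat minus batch, log2, vertical axis) of the corresponding subunit genes of polymerases I, II and III at 7 positions (horizontal axis), with 95% intervals. The polymerase II gene has the highest point at every position except the stalk OB-fold position, where RPB7 and RPC25 coincide at -0.77 and -0.76. The axis label for the smaller stalk partner does not hold for polymerase II, where the RPB4 gene (666 bp) is longer than RPB7 (516 bp).

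Initiation factors and other partners of the 3 enzymes are listed by role and described by counts. Of 9 initiation factors of polymerase I, 8 were lower, 0 higher and 1 did not pass (median -0.37). At an unadjusted limma p under 0.05 the counts were 8 lower and 0 higher. Over all genes 44.8% were called lower and 33.6% higher. With treat at 1.5-fold 1 of the 9 was lower, against 10.4% of all genes. RRN11, a subunit of the core factor, fell most, by 0.96 (SE 0.044), from 7.26 to 6.30. RRN3, which carries growth signals to the enzyme by making it competent to initiate and binds the stalk subunit Rpa43, fell by 0.38 (SE 0.060). The median of these factors was nearer to 0 than that of the polymerase I subunits.

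Of 10 initiation factors and regulators of polymerase III, 5 were lower, 2 higher and 3 did not pass (median -0.07), near the shares over all genes of 44.8% lower and 33.6% higher. PZF1, the factor specific to the smallest ribosomal RNA gene, fell by 0.51 (SE 0.036). The largest rise was that of MAF1, which encodes the repressor that binds polymerase III when nutrients run short, from 7.79 to 8.44, by 0.65 (SE 0.038, adjusted p = 1.18e-06 by limma). BRF1, the factor contacted by Rpc34 and Rpc17, rose by 0.25 (SE 0.046), whereas RPC34 and RPC17 fell by 0.25 and 1.08.

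For polymerase II, 12 of 18 general initiation factors were lower, 2 higher and 4 did not pass (median -0.19). The shares over all genes, to be read beside this list and those that follow, were 44.8% lower and 33.6% higher. TFB5, a small subunit of TFIIH, fell by 0.74 (SE 0.079), and SSL1, another TFIIH subunit, rose by 0.32 (SE 0.040). Among 24 measured of 25 Mediator genes, which link activators to polymerase II, 12 were lower, 5 higher and 7 did not pass (median -0.14), from SRB2 at -1.07 to GAL11 at 0.62. Elongation and tail-modifying factors numbered 15 lower, 2 higher and 2 not passing of 19 (median -0.16), with SPT4 at -0.80 and RTR1, a phosphatase of the tail, at 0.34. SPT15, the TATA-binding protein that all 3 polymerases use, fell by 0.68 (SE 0.060), from 9.97 to 9.29.

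Factors that resemble polymerase subunits can be set beside them; these genes were chosen after their values were seen. TFG1 and TFG2 of TFIIF changed by 0.08, which did not pass (limma adjusted p = 0.231), and 0.28. TAF14 of TFIIF, also called TFG3, changed by -0.36 (SE 0.046). The changes were -1.22 and -1.09 for RPA49 and RPA34 and -0.59 and -0.63 for RPC53 and RPC37. TFA1 and TFA2 of TFIIE, which RPC82 and RPC34 resemble, changed by -0.36 and -0.30, against -0.52 and -0.25. DST1, the cleavage factor TFIIS whose zinc ribbon resembles those of RPA12 and RPC11, changed by -0.36, against -1.001 and -1.05. RPB9, the zinc-ribbon subunit of polymerase II, changed by -0.75. These sets differ in their number of genes, and their changes were not tested against each other.

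Of 7 genes for assembly and nuclear import of the polymerases, 4 were lower, 1 higher and 2 did not pass (median -0.20), beside 44.8% lower and 33.6% higher over all genes. RBA50, an assembly factor, fell by 0.74 (SE 0.040), and IWR1, which guides polymerase II into the nucleus, rose by 0.42 (SE 0.041). Of the mitochondrial enzyme, which is a separate single-subunit polymerase, the catalytic subunit RPO41 rose by 0.41 (SE 0.070), and the initiation factor MTF1 fell by 0.17 (SE 0.047).

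Regulators known to act on promoters of ribosome biogenesis genes, among which many polymerase I and III subunit genes are counted, were measured as well. DOT6, a repressor that binds the PAC motif, rose from 7.63 to 8.24, by 0.61 (SE 0.046, adjusted p = 5.00e-06 by limma), and its paralogue TOD6 fell by 0.26 (SE 0.045). STB3, which binds the RRPE motif, rose by 0.43 (SE 0.052). SFP1, an activator of these genes, did not pass, with a change of -0.00084 (limma adjusted p = 0.987). Activity of these regulators is set largely after transcription and was not measured here.

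**Figure D4:**
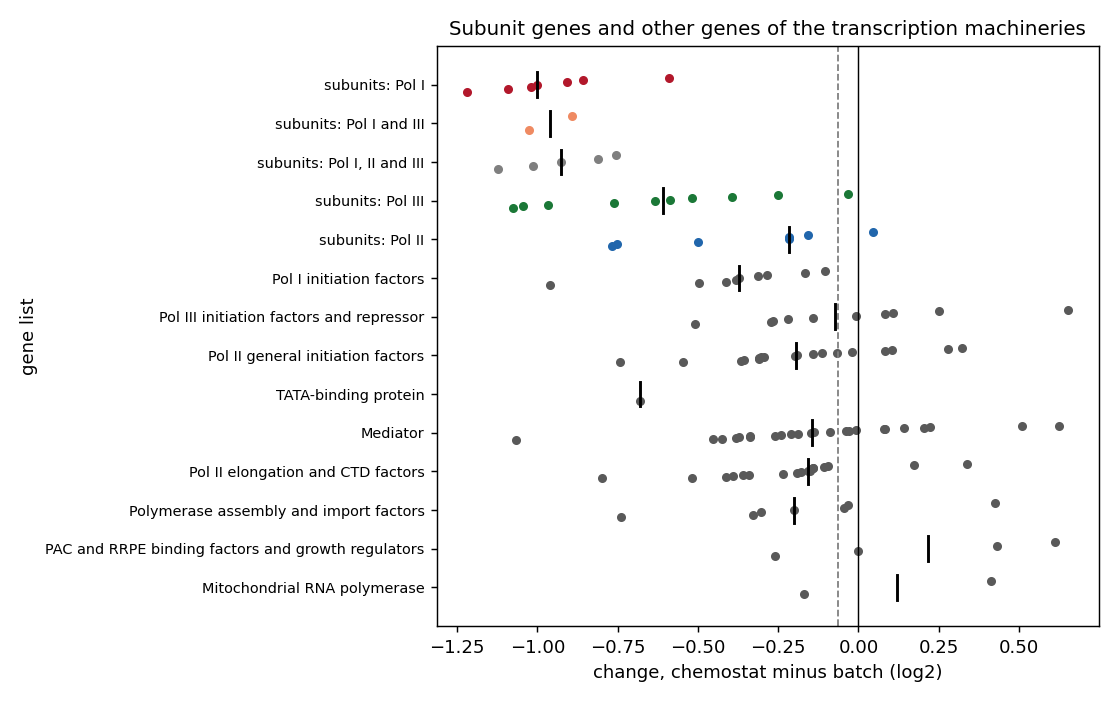
Change (chemostat minus batch, log2, horizontal axis) of every subunit gene by class (coloured) and of every measured gene of the other lists (grey), with list medians as vertical bars and the median of all genes as a dashed line. Medians of the subunit classes run from -1.001 to -0.22, and those of the lists of several initiation, elongation, Mediator and assembly factors from -0.37 to -0.07. Outside that range lie the PAC and RRPE regulators (0.22), the mitochondrial polymerase (0.12) and the single gene SPT15 (-0.68).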

How the data were processed

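Transcripts were measured on 6 single-channel GeneChip arrays (3 batch, 3 chemostat). The authors deposited log2 signals, 1 per probe set. PLIER made them, according to the submitters' processing notes; how it was run is not given in the sources used here, and base 2 was inferred from the range (4.95 to 13.32). Values were used as deposited, and precision is limited by the number of arrays. The 10928 probe sets comprised 5498 for 1 S. cerevisiae gene each; 1746 were assigned to S. pombe, 213 were controls, 1 named several genes and 3470 were unannotated. Symbols were updated through a RefSeq gene table (assembly R64), and the brightest probe set stood for each of the 47 genes with several. The 5449 genes were fitted together with limma 3.58.1 (lmFit, eBayes, two-sided; R 4.3.3), without covariates, and adjusted by Benjamini-Hochberg over all genes. Intervals are 95%; those of pairs rest on 3 arrays per group. The script was tested on simulated data. Members, lists and tests were chosen with earlier results of these data known. All members are named, and of each other list the passing gene with the largest rise and fall, plus diagnostic genes. SRB4 was not analysed here, and BUR1 led to SGV1. Alternatives were quantile normalization, centring on the gene or S. pombe median, a dim-gene filter, trended and robust variance, array weights, averaged probe sets, shared probe sets left out, each replicate left out, a threshold of 0.01 and treat at 1.5-fold. Background subtraction was added after the data were seen. Sequences, and the promoter motifs planned with them, were not analysed here.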

Additional observations from a re-analysis of the deposited data

How the results depend on the processing

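No paired analysis was possible because batch and chemostat replicates share no number. Of 31 members, 28 or 29 were lower and 0 higher in each fit at a threshold of 0.05, every left-out replicate included, and 28 at 0.01; RPB4 was the additional one (-0.16 with a trended and robust variance, limma adjusted p = 0.0484; -0.23 with array weights, limma adjusted p = 0.00468). Over all genes, 41.8% to 48.4% were lower in the fits at 0.05 and 40.3% at 0.01. With treat at 1.5-fold, 19 members passed, among them 4 of polymerase III alone and 2 of polymerase II alone, against 10.4% of all genes. Of the other lists of transcription genes 1 gene was lower among polymerase I factors, Mediator, elongation factors and assembly factors each. The remaining lists had 0 lower, and 0 were higher in any of these lists (5 lower and 0 higher at an unadjusted treat p under 0.05). At a threshold of 0.01, 1 elongation factor was higher. The members' median was -0.74 with S. pombe centring, -0.79 with array weights and -0.85 with background subtracted; it ran from -0.82 to -0.76 with 1 array left out. That of the common subunits was -0.98 with array weights and -0.98 with background subtracted (-0.99 to -0.89 with 1 array left out). Background subtraction gave -1.11 for polymerase I, -1.02 for polymerases I and III and -0.74 for polymerase III, which ran from -0.66 to -0.57 with 1 array left out. Of the pairs, quantile normalization gave -0.55 for RPC40 minus RPB3, -0.999 for RPC17 minus RPB4, 0.57 for RPA14 minus RPC17 and 0.0581 for RPA12 minus RPC11. Background subtraction gave -0.73 for RPC19 minus RPB11, -1.17 for RPC17 minus RPB4, 0.71 for RPA14 minus RPC17 and 0.0315 for RPA12 minus RPC11. Background subtraction enlarges falls by its arithmetic, most at low signal. The cause of the other shifts was not tested. The change of RPO31, which passed in no setting, ran from -0.06 to 0.01. Signal nearer to the floor may limit RPC17 and other dim genes, which was not tested.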
